A study of Mus musculus with 2 samples.

Results

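Some mouse genes are imprinted, which means that mainly the copy inherited from 1 parent is transcribed, and several imprinted regions also carry microRNA genes. The 5 microRNA genes described here lie in imprinted regions other than Dlk1-Dio3: Mir335 in the gene Mest, Mir296 and Mir298 in the Gnas region, Mir483 in Igf2 and Mir675 in H19. They were taken by gene name from tables that list 1973 microRNA genes, and all 5 were present in both. The libraries came from the forebrain of healthy B6NCrl mouse embryos at embryonic day 13.5, with males and females pooled, and only RNA under 30 nucleotides was kept. The 2 libraries form 1 group, named in the labels as biological replicates 1 and 2. They have different biosample identifiers and 1 common donor identifier, and which embryos were pooled is not stated, so the spread between them may be technical. No treated, mutant or second tissue group was available, so each result is a level or a difference between these libraries.

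A microRNA is cut from a hairpin in a longer transcript, and its bases 2 to 8, the seed, pair with target messenger RNAs, which are then repressed. Mest and Igf2 are transcribed mainly from the paternal copy and H19 from the maternal copy. Igf2 encodes a growth factor of the fetus, H19 is a long non-coding RNA, and Mest encodes a protein of the hydrolase fold family. Mir296 and Mir298 are known to be expressed from the paternal copy, from the side of the Gnas region where the antisense transcript Nespas runs. Read counts do not tell the parental copies apart, so imprinting itself was not measured here.

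The mature microRNAs of the 5 genes are shown because the seeds define what each could pair with, and because unique sequences decide whether a read can be counted. They are taken from RefSeq (GRCm38.p6), written 5′ to 3′ with the seed in capitals.
miR-335-5p: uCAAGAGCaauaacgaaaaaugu
miR-335-3p: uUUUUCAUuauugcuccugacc
miR-296-5p: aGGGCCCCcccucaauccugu
miR-296-3p: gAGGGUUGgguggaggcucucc
miR-298-5p: gGCAGAGGagggcuguucuuccc
miR-298-3p: gAGGAACUagccuucucucagcuu
miR-483-5p: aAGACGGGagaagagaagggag
miR-483-3p: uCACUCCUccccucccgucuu
miR-675-5p: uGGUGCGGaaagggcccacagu
miR-675-3p: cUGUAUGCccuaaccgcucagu

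The 10 seeds differ from each other, and none occurs in any of the 1728 other mature microRNAs in the RefSeq table. Seeds found in 1 gene only are common. Counted among measured genes only, a narrower set than the RefSeq table, 388 of the 629 mature microRNAs of detected genes (61.7%) have one. The neighbours Mir296 and Mir298 therefore share a position but no seed. None of the 5 genes had an exact stretch of 20 nucleotides in common with another annotated microRNA transcript, and no whole mature sequence occurred in another of the 2202 transcripts searched. The search was made over annotated microRNA transcripts only. Of the 1973 measured genes, 1894 were matched to the annotation used (GENCODE M21), and 929 of these had such a copy. The 79 unmatched genes were not searched. The tables give 1 count per gene, so the 5p and 3p arms could not be separated.

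The hairpins of the leading gene of the Mest locus and the leading gene of the Gnas region are shown to contrast their composition, with both mature arms in capitals.
Mir335: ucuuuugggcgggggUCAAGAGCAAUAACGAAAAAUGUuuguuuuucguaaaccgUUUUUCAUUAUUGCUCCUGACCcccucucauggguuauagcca
Mir296: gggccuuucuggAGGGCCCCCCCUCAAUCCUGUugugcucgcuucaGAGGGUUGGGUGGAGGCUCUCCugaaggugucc

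The Mir335 hairpin had a GC content of 42.9%, below the median of 50.5% over the 325 detected genes with a RefSeq hairpin. The other members were above that median, with 53.7% in Mir298, 58.9% in Mir483, 63.1% in Mir675 and 63.3% in Mir296. Only 28 of the 325 detected genes had a higher GC content than Mir296. The miR-335-5p arm itself had 30.4% GC, against 66.7% in miR-296-5p. Predicted folding energies ranged from -33.8 kcal/mol in Mir483 to -56 kcal/mol in Mir675, against a median of -37.1 kcal/mol in detected genes. Mir335, Mir298, Mir483 and Mir675 stand in rising order of GC and in falling order of the levels given below. Mir296 departs from this, with a GC content like that of Mir675. A link of GC content to level was not tested.

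By GENCODE M21 (GRCm38, the build of the tables), Mir335 lies on chromosome 6 at 30741299 to 30741396 on the plus strand. It is in an intron of each of the 7 Mest transcripts that run over it. Mir483, on chromosome 7 at 142654924 to 142654996 on the minus strand, lies in an intron of 7 Igf2 transcripts and of the overlapping gene Gm49394. Mir675, at 142577064 to 142577147 on the same strand, lies in an exon of 3 of the 4 H19 transcripts that run over it (exon 1 in 2 of them, exon 2 in the other one) and in an intron of the remaining transcript. Mir483 and Mir675 are 77.8 kb apart. Mir296 (chromosome 2, 174267047 to 174267125) and Mir298 (174267504 to 174267585), both on the minus strand, are separated by 378 bases and overlap no other annotated gene. The nearest gene other than a microRNA is Nespas, on the same strand, 14.1 kb from Mir296 and 13.7 kb from Mir298. Mir296 and Mir298 were each other's only measured neighbours within 10 kb, and the remaining members had none.

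**Figure D1:**
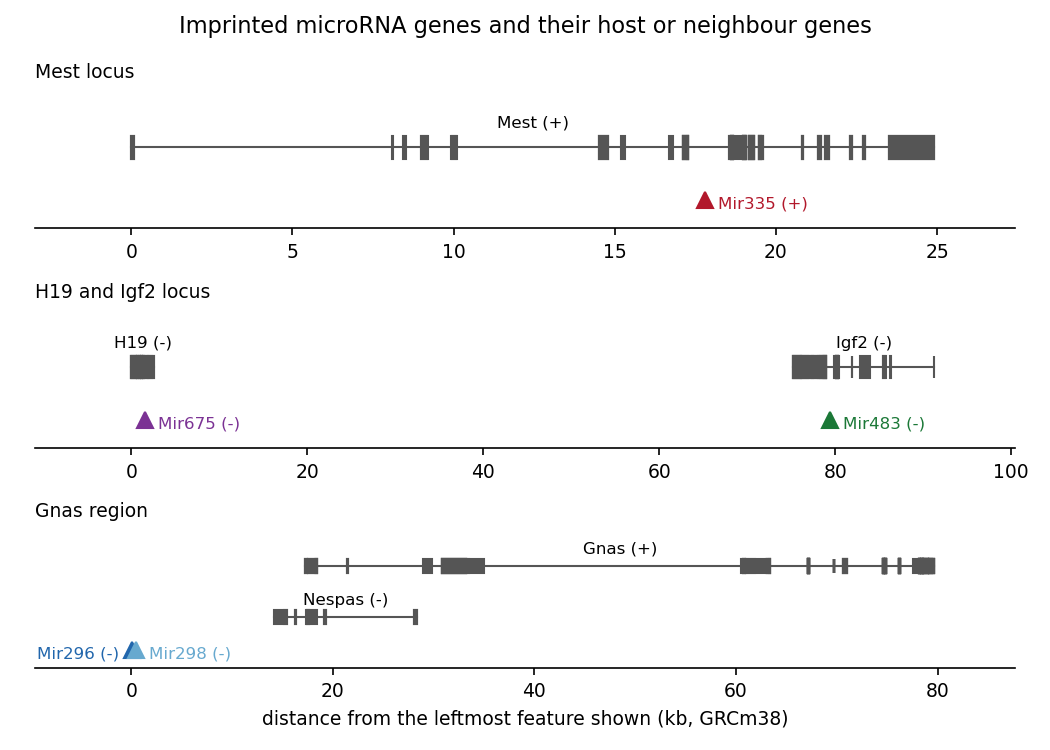
Positions of the 5 microRNA genes (triangles) relative to their host or neighbour genes; boxes are exons of any annotated transcript, lines are introns, the signs give the strand, and the x axis is the distance in kb from the leftmost feature of each panel. Mir335 and Mir483 lie in introns, Mir675 in an exon of 3 of the 4 H19 transcripts that run over it, and Mir296 and Mir298 beyond the annotated end of Nespas.

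Replicate 1 had 4117752 reads counted on microRNA genes on their own strand and replicate 2 had 3908953. Levels are counts relative to 1000000 of these reads (CPM), and 1 count was worth 0.243 CPM in replicate 1 and 0.256 CPM in replicate 2. Intervals are 95% Wilson intervals and cover counting error only, as reads copied by PCR are not independent molecules. All 5 genes were detected, meaning at least 10 counts in each library, as were 377 of the 1973 genes. Among the neural microRNAs used to check the tissue, 7 of 9 measured genes were detected and their summed level was 25164 and 21543 CPM, led by Mir92b and Mir137. The Mir124a genes, which mark neurons, had at most 20 counts each, and all of them have copies. Markers of other tissues were also present. The 6 mural and mesenchymal genes summed to 6640 and 7093 CPM, mostly from Mir143 and Mir140 (means 3525 and 3032 CPM). Mir199a-1 and Mir199a-2, which have copies, had means of 0.850 and 3.84 CPM. The 6 choroid plexus genes summed to 9789 and 6993 CPM, led by Mir449a (mean 6352 CPM). Mir34b, Mir449b and Mir449c had means of 21.4, 8.96 and 7.06 CPM. The endothelial gene Mir126a had 16042 and 18828 CPM. Erythroid markers summed to 149.6 and 76.2 CPM and the liver gene Mir122 had 59.3 and 52.7 CPM, while 4 of 5 striated muscle genes, all with copies, were at 0. In whole tissue, more cells of a type and more RNA per cell cannot be told apart, and the part of these cell types in the levels below was not tested.

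Mir335, which comes from an intron of Mest, was by far the most abundant of the 5 genes. It had 213734 counts in replicate 1 and 205942 in replicate 2, or 51906 and 52685 CPM. It was the third most abundant gene of the whole table in both libraries. Its share of all gene counts was 5.19% in replicate 1 (interval 5.17 to 5.21) and 5.27% in replicate 2 (5.25 to 5.29), on average 5.23% ± 0.0551 (SD, n = 2). The libraries were close in CPM, with an SD of 1.05% of the mean. The 6 detected genes within 2-fold of the level of Mir335 had a median of 7.97%, and all of them varied more by this measure. Next above Mir335 stood Mirlet7g, a member of the let-7 family, at 58085 ± 4019 CPM, and next below stood Mir17 at 48988 ± 625 CPM. Both gaps were larger than the summed SDs and had the same sign in each library. Reads on the strand opposite to Mir335 numbered 2 and 3. Ranks and shares, here and below, leave out the multi-mapped reads, 40.6% and 43.9% of all reads. Genes with copies can lose reads in this way, and how far their ranks would rise was not tested.

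Mir296 and Mir298, the pair of the Gnas region, came next among the 5 genes. Mir296 had 25472 and 20760 counts, or 6186 and 5311 CPM, a mean of 5748 ± 619 CPM. Mir298 had 12469 and 11607 counts, or 3028 and 2969 CPM, a mean of 2999 ± 41.6 CPM. Mir296 was thus higher than Mir298 in both libraries, and their levels did not overlap. Neither gene had a read on its opposite strand. Mir296 ranked 36 in replicate 1 and 41 in replicate 2 among all genes, and Mir298 ranked 63 and 59. The genes next to Mir296 in level were Mir98, of the let-7 family, at 5843 ± 775 CPM and Mir30d at 5688 ± 430 CPM. The genes next to Mir298 were Mir140, a cartilage and mesenchyme microRNA, at 3032 ± 196 CPM and Mir381, of the Dlk1-Dio3 region, at 2867 ± 449 CPM. None of these neighbours differed from its member beyond the spread of the libraries. Neighbours here and below were picked as nearest in mean level in these same libraries, so this outcome is largely given by the choice.

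The balance within the Gnas pair can be read inside each library, where library size cancels. There were 2.04 Mir296 reads for each Mir298 read in replicate 1 (exact 95% interval 2.00 to 2.09) and 1.79 in replicate 2 (1.75 to 1.83), a mean of 1.92 ± 0.180. The intervals of the libraries did not overlap, so the balance shifted between the libraries by more than counting error, although Mir296 led in both.

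Mir483, in an intron of Igf2, was 54.3-fold lower than Mir298 by the mean levels. It had 227 and 216 counts, or 55.1 and 55.3 CPM, a mean of 55.2 ± 0.0923 CPM. The SD was 0.167% of the mean, while counting error alone leaves an interval of 48.4 to 62.8 CPM in replicate 1 and 48.4 to 63.1 CPM in replicate 2, so the closeness of the values is finer than the depth can resolve. Mir483 stood at rank 235 of the table by mean level, above 142 of the 377 detected genes. Its neighbours in level were Mir122, the main microRNA of liver, at 56.0 ± 4.64 CPM and Mir3093 at 55.0 ± 12.2 CPM, and neither differed from it beyond the spread.

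Mir675, cut from H19 itself, was the lowest of the 5. It had 30 counts in replicate 1 and 35 in replicate 2, or 7.29 CPM (interval 5.10 to 10.4) and 8.95 CPM (6.44 to 12.5), a mean of 8.12 ± 1.18 CPM. The intervals of the libraries overlapped. In replicate 1 there were also 2 reads on the opposite strand, and in replicate 2 there were 0. Mir675 stood at rank 317, above 60 of the 377 detected genes, next to Mir211 at 8.69 ± 1.79 CPM and Mir1948 at 8.08 ± 0.936 CPM, which did not differ from it beyond the spread. With at least 50 counts in each library asked for, 4 of the 5 genes would count as detected, and Mir675 would not.

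The Igf2 and H19 genes share an imprinted region and are transcribed mainly from opposite parental copies, which was not measured here. Of their microRNAs, Mir483 was higher than Mir675 in both libraries. The ratio of Mir483 to Mir675 reads was 7.57 in replicate 1 (exact 95% interval 5.16 to 11.5) and 6.17 in replicate 2 (4.30 to 9.09), a mean of 6.87 ± 0.987. These intervals overlap, so a shift of this balance between the libraries was not detectable at this depth.

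**Figure D2:**
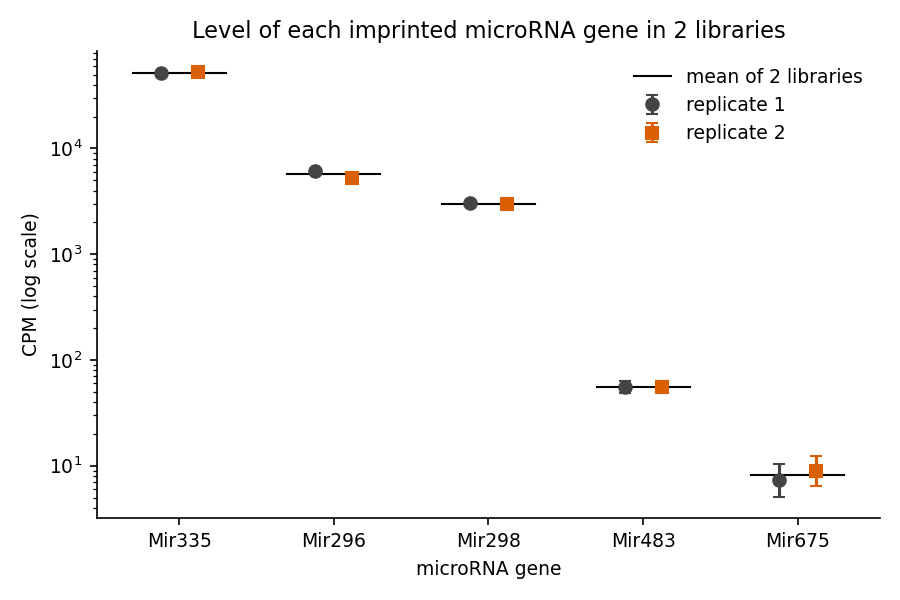
CPM (log scale) of each of the 5 genes in replicate 1 (circles) and replicate 2 (squares), with 95% Wilson intervals as bars and the mean of the libraries as a line; most intervals are narrower than the symbol. The genes do not overlap, and the order from Mir335 at 52295 CPM to Mir675 at 8.12 CPM is the same in both libraries.

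The order Mir335, Mir296, Mir298, Mir483, Mir675 was the same in both libraries, and each step was larger than the summed SDs of its genes. The mean of Mir335 was 9.10-fold that of Mir296, Mir296 1.92-fold Mir298, Mir298 54.3-fold Mir483 and Mir483 6.80-fold Mir675. From Mir335 to Mir675 the levels spanned 6441-fold. Dividing CPM by the annotated length of each gene, 73 to 98 nucleotides, left all 5 in the same place, from 53362 CPM per 100 nucleotides for Mir335 to 9.67 for Mir675. How evenly different microRNAs are captured in a library was not measured, so these folds are folds in reads. By locus, the Mest gene gave 52295 ± 551 CPM, the Gnas pair 8747 ± 660 CPM and the Igf2-H19 pair 63.3 ± 1.27 CPM.

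**Figure D3:**
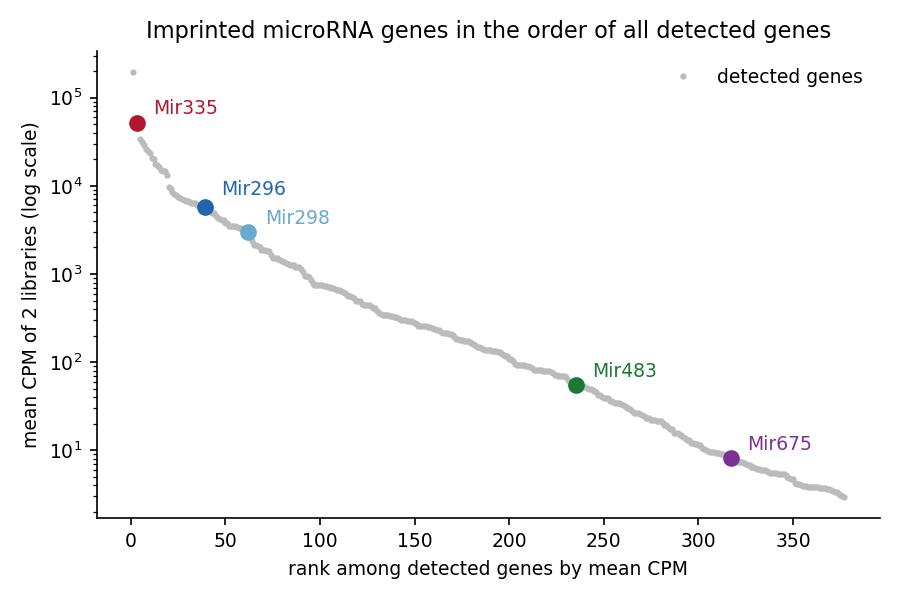
Mean CPM (log scale) of the 377 detected genes by rank (grey), with the 5 imprinted genes in colour. Mir335 is at rank 3, Mir296 and Mir298 at 39 and 62, and Mir483 and Mir675 at 235 and 317.

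Together the 5 genes took 6.12% of all gene counts in replicate 1 and 6.10% in the other library (mean 6.11% ± 0.0108). Mir335 made up 84.8% and 86.3% of that sum. For comparison, the 59 measured microRNA genes between Dlk1 and Dio3 held 7.53% and 6.11%, a mean of 6.82% ± 1.00. Without its copied genes the Dlk1-Dio3 share was 4.60%, while that of the 5 genes did not change because none has a copy. Mir335 alone had 0.690 times the reads of the whole Dlk1-Dio3 region in replicate 1 and 0.862 times in replicate 2, and it was above all 59 of its genes in both libraries. The leading Dlk1-Dio3 genes were Mir487b at 16517 ± 3870 CPM, Mir369 at 7177 ± 446 CPM and Mir127 at 5942 ± 336 CPM. Mir296 was above 57 of the 59 in replicate 1 and 56 in replicate 2, Mir483 above 16 and 17, and Mir675 above 14 and 16.

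Another imprinted region, inside the gene Sfmbt2, has 107 measured microRNA genes, of which 10 were detected and 105 have copies. It held 0.393% and 0.375% of the gene counts, with Mir467c highest at 1210 ± 33.0 CPM, Mir467d at 946 ± 104 CPM and Mir467e at 939 ± 70.0 CPM. Without genes that have copies its share was 0.000136%. Mir335, Mir296 and Mir298 were each above all 107 Sfmbt2 genes in both libraries, and Mir483 above 101 of them. Reads that fit several places stand among the multi-mapped ones, and how many of them come from Sfmbt2 genes was not tested. The median level was 2999 CPM over the 5 genes, 138.5 CPM over Dlk1-Dio3, 0 over Sfmbt2 and 0 over all 1973 genes. Over detected genes only, it was 2999 CPM for the 5, 352.1 CPM for Dlk1-Dio3, 169.5 CPM for Sfmbt2 and 137.4 CPM for all.

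The libraries were then compared gene by gene, as log2 of replicate 2 over replicate 1 after TMM scaling, with a two-sided exact binomial test that covers counting error only. Of 475 genes tested, 38.9% had a Benjamini-Hochberg adjusted p under 0.05, and 20.8% were lower in replicate 2. With a log2 ratio over 1 in size as well, 3.37% were called, and 0 of the 5 imprinted genes were among them. At the adjusted p alone, 3 of the 5 passed, 2 higher and 1 lower in replicate 2. This count is of 5 genes, to be read against the 38.9% of all genes tested.

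Mir335 was higher in replicate 2 by a log2 ratio of 0.13 (exact 95% interval 0.12 to 0.14, exact binomial adjusted p = 4.08e-186), which is 1.09-fold. With library totals in place of TMM its ratio was 0.021 (exact binomial adjusted p = 6.02e-06), so the size depends on the scaling. After TMM scaling, 63.4% of the 377 detected genes had a larger ratio in either direction than Mir335. The small p thus comes with a small difference at a very high count. Among the 6 detected genes within 2-fold of the level of Mir335, 5 had a larger one. Mir296 had a log2 ratio of -0.11 (-0.14 to -0.08, exact binomial adjusted p = 1.06e-15), and 69.2% of the detected genes had a larger one. Mir298 had 0.08 (0.04 to 0.12, exact binomial adjusted p = 6.85e-05), and with library totals in place of TMM its ratio was -0.028 (exact binomial adjusted p = 0.250). The genes of the Gnas pair thus moved in opposite directions after TMM scaling and in 1 direction, downward, with library totals, under which Mir298 did not pass.

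Mir483 had a log2 ratio of 0.11 (-0.16 to 0.39, exact binomial adjusted p = 0.578) and Mir675 of 0.40 (-0.34 to 1.16, exact binomial adjusted p = 0.432). Neither passed, and the ratio of Mir335 lies inside both intervals, so a difference of that size was not detectable at these counts. The median log2 ratio was 0.11 over the 5 genes and 0.03 over the detected genes. Over the 47 detected Dlk1-Dio3 genes the median was -0.19, with 27 lower and 2 higher past the adjusted p, and over the 10 detected Sfmbt2 genes it was -0.05, with 1 lower and 1 higher. Library totals moved all ratios by -0.11, to 0.00 for the median of the 5 genes and -0.30 for Dlk1-Dio3. Between the libraries the summed markers had log2 ratios of -0.86 (erythroid), -0.38 (choroid plexus), -0.12 (neural), -0.06 (liver and striated muscle alike), 0.20 (mural and mesenchymal) and 0.34 (endothelial). The mural and mesenchymal genes did not move together, with 0.47 for Mir143 and -0.81 for Mir214. Neither did the 2 erythroid genes, with 0.77 for Mir144 and -1.73 for Mir451a. The part of these markers in the ratios of the 5 genes was not tested.

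**Figure D4:**
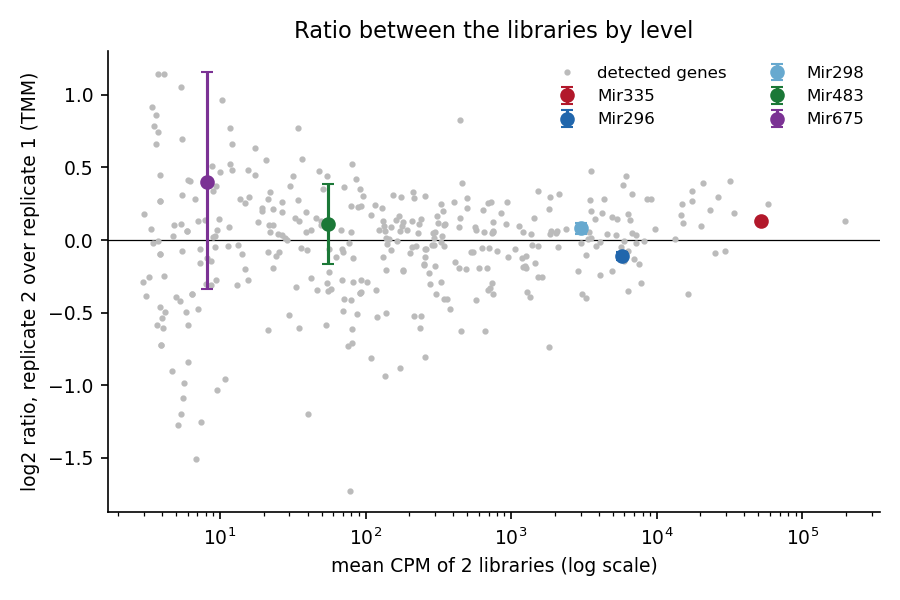
Log2 ratio of replicate 2 over replicate 1 (TMM) against mean CPM (log scale) for the 377 detected genes (grey) and the 5 imprinted genes (colour, bars are exact 95% intervals covering counting error). All 5 lie between -0.11 and 0.40, and the intervals of Mir483 and Mir675 include 0.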

How the data were processed

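MicroRNA sequencing gave 2 libraries of 1 group, and the deposited tables, 1 per library, hold whole-number read counts per gene on either strand, on the gene's strand and opposite to it. Per the read-me texts deposited with them, the authors used mm10 and GENCODE M4; an aligner and a counting tool are not given in the sources read. Unmapped, multi-mapped, unassigned and ambiguous reads stand in rows of their own. Unmapped reads were 16.7% and 15.0% of the 10631040 and 10452225 reads, multi-mapped 40.6% and 43.9%, unassigned 3.99% and 3.71%, and ambiguous reads 0. None of these rows entered a library size or a test.

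Names and positions came from GENCODE M21 (1894 of 1973 identifiers matched). Own-strand counts were scaled to CPM in Python 3.11.15. Ratios used TMM (edgeR 4.0.16, R 4.3.3) and a prior count of 0.5. The exact binomial test with Benjamini-Hochberg adjustment ran over all genes with at least 10 counts in both libraries together. It was run on simulated data that held counting error only. That run cannot show how the test behaves under the larger spread of these libraries. The test compares libraries, not conditions. Neighbours in level were said to differ where the gap of the means exceeded the summed SDs with 1 order in both libraries. Hairpins were folded with RNAfold 2.7.2. The tables were not copies of 1 library (chi-square 32540 on 376 degrees of freedom over detected genes). Named genes were the members, their neighbours in level, genes sharing a seed or lying within 10 kb, the 3 leading genes of each comparison list, and tissue markers. Members, lists and rules were chosen with earlier results of these data known.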

Additional observations from a re-analysis of the deposited data

How the results depend on the processing

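The order of the 5 genes held in each library alone and per 100 nucleotides of gene length, the latter chosen after seeing the data. With all reads as the denominator the mean levels were 19904 reads in 1000000 for Mir335, 2191 for Mir296, 1142 for Mir298, 21.01 for Mir483 and 3.09 for Mir675. With either-strand counts Mir335 stood at 51233, Mir298 at 2938 and Mir483 at 54.1 CPM, because the total rises, while Mir296 and Mir675 moved by less than their SD. With genes that have copies left out, Mir335 kept rank 3, and the ranks of the others became 35, 53, 182 and 247, because fewer genes are ranked. The log2 ratio of Mir298 was -0.028 with library totals and 0.034 with DESeq2 size factors (exact binomial adjusted p = 0.147; 4.22e-05 to 0.250 over its alternatives). The other 4 ratios kept their direction and their side of the threshold under all alternatives that tested them (Mir675 is not tested with at least 50 counts in each library). Their sizes depended on the scaling, with 0.130 for Mir335 with TMM and 0.021 with library totals. Genes past the adjusted p were 86 higher and 99 lower with TMM, 54 and 141 with library totals and 67 and 118 with DESeq2 1.42.0 size factors. Genes called with the log2 ratio as well numbered 16, and 2 with at least 50 counts in each library, where fewer genes are tested. Depth limits Mir675 most: a count of 0 would allow 0.729 CPM in replicate 1 and 0.767 CPM in replicate 2. No paired analysis was possible because there is 1 group.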
